A study of Mus musculus with 10 samples.

Results

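The enzymes described here act on glycine, sarcosine and the folate-bound carbon units made from them, and comprise Gnmt, Gatm, Bhmt, Dmgdh, Sardh, Shmt1, Shmt2, Mthfd1, Mthfd2 and Gldc. These 10 genes, of 54532 in the count table, were chosen by name, with the difference between DMM-treated and PBS-treated kidneys in these libraries already known. Their values are therefore given as a description: the fit over all genes includes them and their calls are counted below, but no p is given for them. Glycine N-methyltransferase (Gnmt) makes sarcosine, and the mitochondrial flavoproteins Dmgdh and Sardh demethylate dimethylglycine and sarcosine back to glycine. Gatm starts creatine synthesis from glycine and arginine, Gldc is the decarboxylase of the glycine cleavage system, and the Shmt and Mthfd enzymes pass carbon units between serine, glycine and folate in the cytosol (Shmt1, Mthfd1) and the mitochondrion (Shmt2, Mthfd2). In the kidney, glycine is used and creatine precursor is made mainly in the proximal tubule.

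Bulk RNA-seq was done on kidneys of male wild-type C57BL/6 mice whose left ureter was ligated (unilateral ureteral obstruction, UUO) when they were 8 weeks old, with the kidneys taken 14 days after surgery. One group received dimethyl malonate (DMM), a malonate ester that inhibits succinate dehydrogenase, intraperitoneally at 40 mg/kg every other day, and the control group received PBS. Each group had 5 libraries, named PBS 1 to 5 and DMM 1 to 5 and also called kidneys here, and the labels and methods do not state that each came from a separate mouse. Both groups were obstructed, and no unobstructed kidney was analysed here. Total counts ranged from 15722527 to 19475833 per library.

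The libraries PBS 3 and DMM 1 have a weight of 0 in the group means that the authors deposited. Fold changes and counts of called genes are therefore given over all 10 libraries and over the 8 libraries without PBS 3 and DMM 1. By the chi-square per degree of freedom between the counts of library pairs, PBS 3 differed from the other PBS kidneys by 35.8 to 80.7, where those differed among themselves by 10.3 to 26.8, and DMM 1 differed from DMM 2, DMM 3 and DMM 5 by 49.8 to 88.9. DMM 4 stood farther apart, at 164 to 188 from each other DMM kidney, where DMM 2, DMM 3 and DMM 5 differed among themselves by 9.95 to 15.5. DMM 4 is part of the set of 8, and the counts of called genes without it are given below. The smaller set is contained in the larger one and adds no independent support. It leaves out the PBS library with the highest and the DMM library with the lowest summed level of the enzymes, and the pathway and marker lists below were chosen with earlier results of these data known. Calls over 8 libraries are therefore counted beside those of all genes, with no p for single genes, and nothing is read from them. Levels are CPM, the counts scaled to a common library size by TMM, and fold changes are DMM over PBS on the log2 scale from edgeR's quasi-likelihood fit over all genes, with their standard error (SE). A called gene is one with a fold change above 1.5 and an adjusted p (Benjamini-Hochberg) below 0.05, and a gene past the nominal threshold is one with the same fold change and a p below 0.05 before adjustment.

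Of the 10 enzymes, 9 passed the filter on low counts in both sets of libraries. Bhmt, which remethylates homocysteine with betaine and is chiefly a liver enzyme in mice, did not pass. It had 3, 4, 9, 0 and 1 counts in PBS 1 to 5 and 0, 16, 11, 0 and 15 counts in DMM 1 to 5. The DMM group thus held both the highest counts and libraries with none, and a count of 0 allows up to 3 counts. Such limits cover counting error only and not variation between kidneys, and the study's methods name no molecular identifiers.

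The proximal tubule could be followed by 14 marker genes, all of them detected, with Kap the most abundant at 36.7% of their summed level. Their summed level was 4294, 4309.8, 11218, 1531 and 3149 CPM in PBS 1 to 5 and 3193, 8810.2, 7887, 6055 and 11325 CPM in DMM 1 to 5. PBS 3 was thus at the level of the highest DMM kidney, DMM 1 was at the level of the PBS kidneys, and DMM 2 to 5 were all above PBS 1, 2, 4 and 5. The summed level of the 10 enzymes was 431, 425, 745, 317 and 341 CPM in PBS 1 to 5 and 355, 646, 794, 466 and 879 CPM in DMM 1 to 5. It showed the same high PBS 3 and low DMM 1, and DMM 4 was the lowest of DMM 2 to 5 in both sums. In bulk tissue, fewer proximal tubule cells and less RNA per cell cannot be told apart. All 14 markers had a positive fold change in both sets, with a median log2 fold change of 0.69 over 10 libraries and 1.65 over 8, and edgeR called 4 of them higher over 8 libraries, beside 2.73% of all tested genes, where DESeq2 called 11 and 11 passed the nominal threshold defined above. Of all genes over 8 libraries, DESeq2 called 2.48% higher and 3.01% lower among the 30191 it fitted, and 6.45% were higher and 7.24% lower at the nominal threshold among those tested by edgeR. Over 10 libraries, edgeR and DESeq2 each called 0 markers and 2 were higher at that threshold, beside 1.91% of all tested genes. The part of tubule content in the results below was not tested.

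**Figure D1:**
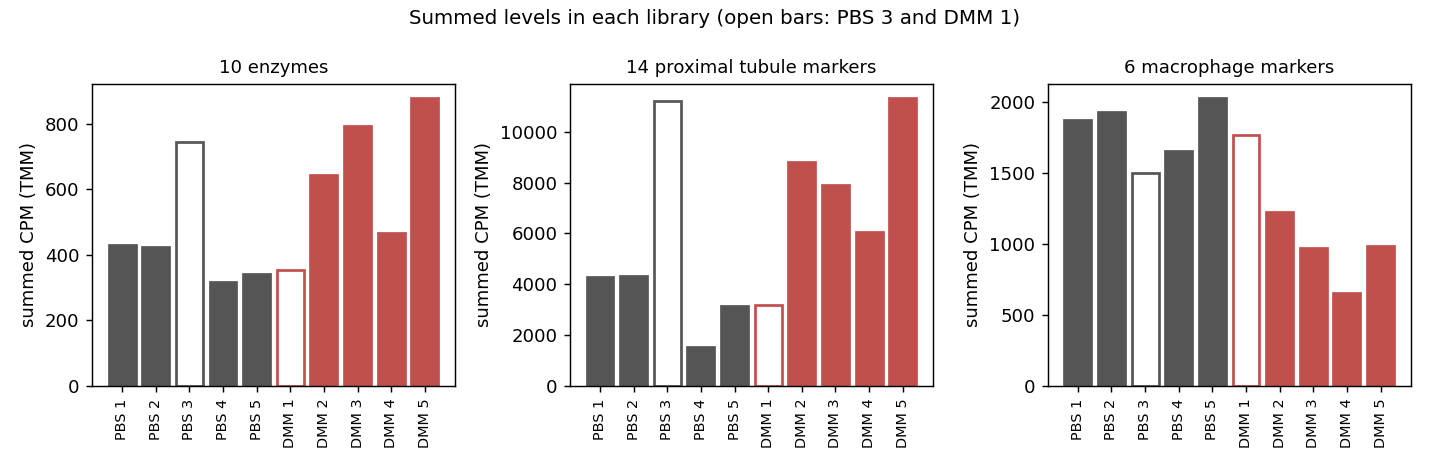
Summed CPM in each library of the 10 enzymes, of 14 proximal tubule markers and of 6 macrophage markers, with PBS libraries in grey, DMM libraries in red, and PBS 3 and DMM 1 as open bars. The enzymes sum to 745 CPM in PBS 3 and 355 CPM in DMM 1, and the proximal tubule markers to 11218 and 3193 CPM.

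Compared per kilobase of the deposited gene length, the enzymes spanned a wide range of levels. Gatm was the most abundant, at a mean of 47.4 CPM per kb over the 10 libraries, and ranked first in each of them. Sardh at 25.4, Mthfd1 at 22.5 and Shmt2 at 16.3 CPM per kb followed, and their ranges over libraries overlapped (13.5 to 39.7, 14.1 to 33.0 and 9.29 to 22.6 CPM per kb). Shmt1, with a mean of 10.6 CPM per kb, had the rank 5 in every library. Dmgdh, Gldc and Mthfd2 had means of 6.74, 6.54 and 4.89 CPM per kb and exchanged ranks between libraries, so these neighbours did not differ beyond their spread. Gnmt stood at 2.78 CPM per kb, with a range of 0.439 to 7.85 that overlapped theirs, and Bhmt was last in every library at a mean of 0.0608 CPM per kb. Gatm made up between 20.3% (DMM 4) and 32.7% (PBS 3) of the summed CPM of the enzymes, without division by length.

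Gnmt (chromosome 17, 46725664 to 46729168) had the largest fold change of the 9 tested enzymes. It was at 1.59, 1.06, 5.34, 0.532 and 0.529 CPM in PBS 1 to 5 and at 0.679, 4.03, 9.46, 2.72 and 7.54 CPM in DMM 1 to 5. PBS 3 was above DMM 2 and DMM 4, and DMM 1 was among the low PBS kidneys, so that the groups overlapped over 10 libraries but not over 8. These levels rest on 9 to 167 counts per library. On the log2 scale the fold change was 1.43 (SE 0.75) over 10 libraries and 2.67 (SE 0.51) over 8.

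The demethylases Dmgdh and Sardh, which return the methyl groups of dimethylglycine and sarcosine to folate, differed in level and in size of change. Dmgdh (chromosome 13, 93674433 to 93752833) was at 14.5, 14.2, 37.7, 4.58 and 8.53 CPM in PBS 1 to 5 and at 9.63, 33.8, 39.8, 15.8 and 51.5 CPM in DMM 1 to 5. Sardh (chromosome 2, 27188393 to 27248337) was at 107, 118, 184, 73.2 and 79.1 CPM in PBS 1 to 5 and at 93.8, 174, 187, 146 and 216 CPM in DMM 1 to 5. For both genes PBS 3 lay within the range of DMM 2 to 5, and without PBS 3 and DMM 1 every DMM kidney was above every PBS kidney, by a narrow margin for Dmgdh (15.8 CPM in DMM 4 against 14.5 CPM in PBS 1). The log2 fold change of Dmgdh was 0.92 (SE 0.56) over 10 libraries and 1.75 (SE 0.43) over 8, and that of Sardh was 0.54 (SE 0.28) and 0.94 (SE 0.19). The log2 ratio of Sardh to Dmgdh, each per kb, was 2.42 ± 0.62 (SD, n = 5) in PBS and 1.96 ± 0.57 (SD, n = 5) in DMM kidneys, and 2.62 ± 0.49 and 1.80 ± 0.51 (SD, n = 4) over 8 libraries. It was highest in PBS 4, at 3.33, which also had the lowest proximal tubule marker sum, and lowest in DMM 5, at 1.40, which had the highest.

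Gldc (chromosome 19, 30098449 to 30175418), which releases the carboxyl group of glycine in mitochondria, was at 13.5, 15.2, 28.1, 11.8 and 11.7 CPM in PBS 1 to 5. In DMM 1 to 5 it was at 10.1, 27.2, 48.2, 21.0 and 58.8 CPM. DMM 1 had the lowest level of all 10 libraries, PBS 3 was above DMM 2 and DMM 4, and the other libraries did not overlap. Its log2 fold change was 1.04 (SE 0.43) over 10 libraries and 1.57 (SE 0.31) over 8.

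Gatm (chromosome 2, 122594467 to 122611303), the enzyme that makes guanidinoacetate for creatine, overlapped between the groups in both sets. It was at 125, 109, 244, 71.0 and 85.4 CPM in PBS 1 to 5 and at 72.6, 153, 217, 94.7 and 249.8 CPM in DMM 1 to 5. PBS 3 came second to DMM 5, and DMM 4 was below PBS 1 and PBS 2. Its log2 fold change was 0.31 (SE 0.40) over 10 libraries and 0.87 (SE 0.30) over 8.

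Of the folate enzymes, the cytosolic Mthfd1 (chromosome 12, 76255298 to 76319803), which interconverts folate-bound carbon units, had the smallest SE over 8 libraries. It was at 81.1, 73.8, 122, 62.7 and 67.2 CPM in PBS 1 to 5 and at 69.1, 122, 146, 109 and 145 CPM in DMM 1 to 5. PBS 3 and DMM 1 exchanged places here as for the genes above, and the other libraries did not overlap, with 81.1 CPM as the highest PBS and 109 CPM as the lowest DMM level. The log2 fold change was 0.54 (SE 0.23) over 10 libraries and 0.88 (SE 0.14) over 8. Its mitochondrial relative Mthfd2 (chromosome 6, 83305691 to 83325908) ranged from 13.9 to 22.5 CPM in PBS and from 10.9 to 22.2 CPM in DMM kidneys, with means of 16.9 ± 3.33 and 17.2 ± 5.01 CPM (SD, n = 5). Its log2 fold change was 0.02 (SE 0.21) over 10 libraries and 0.03 (SE 0.26) over 8, and its sign changed with the scaling, at -0.07 and -0.09 with library size alone. Mthfd2 was lowest in DMM 5, where Gnmt, Gldc and Mthfd1 were high, and the log2 ratio of Mthfd1 to Mthfd2 per kb was 1.89 ± 0.50 (SD, n = 5) in PBS and 2.44 ± 0.74 (SD, n = 5) in DMM kidneys, with the highest value, 3.38, in DMM 5. Over 8 libraries this ratio was 1.75 ± 0.45 in PBS and 2.63 ± 0.70 in DMM kidneys (SD, n = 4).

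The serine hydroxymethyltransferases split serine into glycine and a folate-bound carbon unit. In both sets their fold changes were below those of the demethylases, a difference between genes that was not tested. When DMM 4 was left out of the 10 libraries, the log2 fold change was 0.64 for Shmt1 and 0.58 for Sardh. This order also turned without PBS 4 and without PBS 5. The cytosolic Shmt1 (chromosome 11, 60788104 to 60811718) was at 33.2, 34.7, 43.3, 28.7 and 31.5 CPM in PBS 1 to 5 and at 36.8, 45.5, 62.4, 26.3 and 68.6 CPM in DMM 1 to 5. The mitochondrial Shmt2 (chromosome 10, 127517123 to 127522444) was at 41.2, 43.0, 63.4, 42.1 and 41.4 CPM in PBS 1 to 5 and at 45.5, 62.0, 69.3, 28.9 and 70.3 CPM in DMM 1 to 5. For both genes DMM 4 was the lowest of all 10 libraries while DMM 3 and DMM 5 were the highest, so that the groups overlapped in both sets. The log2 fold change of Shmt1 was 0.48 (SE 0.24) over 10 libraries and 0.66 (SE 0.26) over 8, and that of Shmt2 was 0.26 (SE 0.23) and 0.46 (SE 0.25). The log2 ratio of Shmt1 to Shmt2 per kb was -0.74 ± 0.12 (SD, n = 5) in PBS and -0.53 ± 0.16 (SD, n = 5) in DMM kidneys, and -0.71 ± 0.12 and -0.51 ± 0.18 (SD, n = 4) over 8 libraries. Shmt1 overlaps Smcr8 and Shmt2 overlaps Ndufa4l2 on the opposite strand, and reads of these pairs cannot be told apart because the strand setting of the counting is not given in the sources used here.

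**Figure D2:**
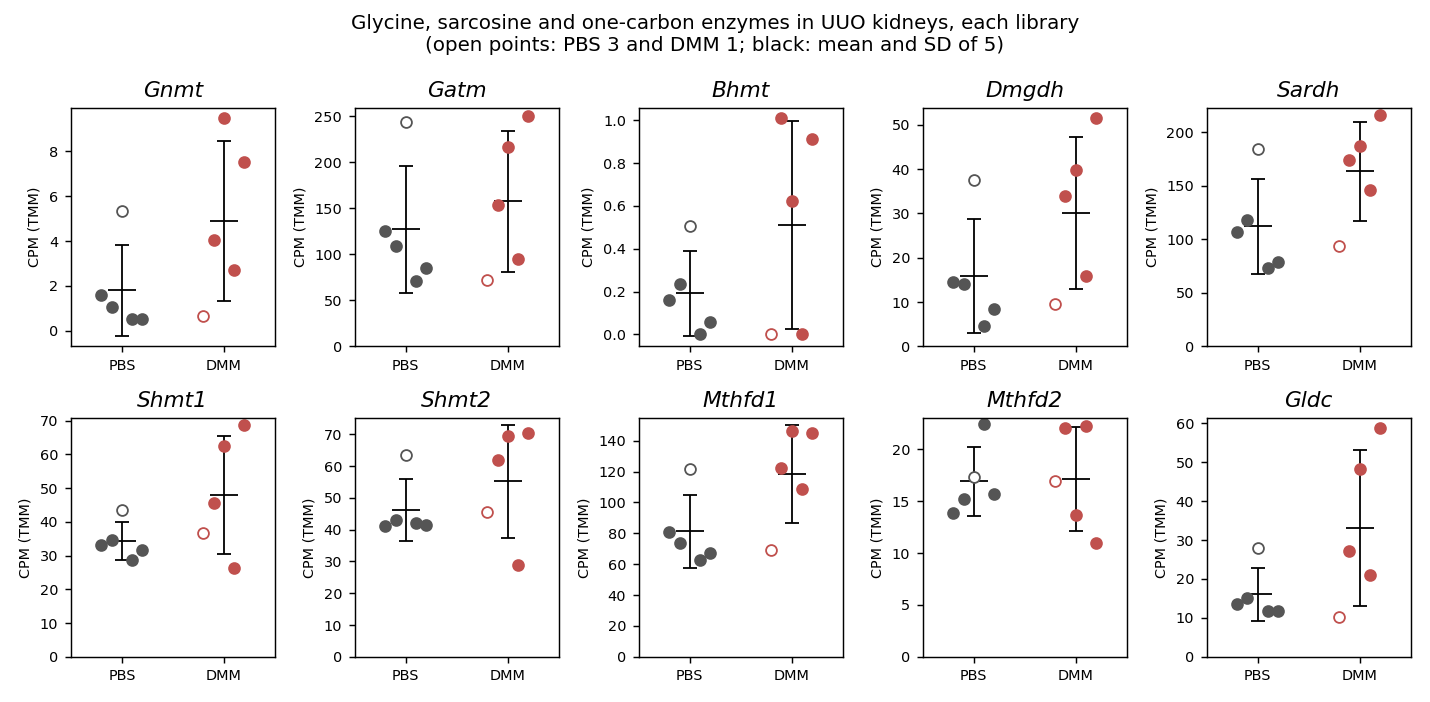
CPM of each of the 10 enzymes in each library, with a linear axis per gene, PBS libraries in grey, DMM libraries in red, PBS 3 and DMM 1 as open points, and the mean and SD of 5 in black. PBS 3 is the highest PBS library in every panel but that of Mthfd2, and DMM 4 is the lowest library for Shmt1 (26.3 CPM) and Shmt2 (28.9 CPM).

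All 9 tested enzymes had a positive log2 fold change in both sets, that of Mthfd2 only with some scalings, with a median of 0.54 over 10 libraries and 0.88 over 8. The median over all tested genes was 0.02 in both. Over 10 libraries, edgeR called 0 of the 9 enzymes, and 0% of 16505 tested genes were called, the smallest adjusted p of any gene being 0.378. At the nominal threshold, 1 enzyme (Gldc) was higher, as were 1.91% of all tested genes, and DESeq2 called 0 enzymes and 45 genes. Over 8 libraries, 5 of the 9 enzymes (Gnmt, Dmgdh, Sardh, Mthfd1 and Gldc) were called higher, as were 2.73% of 16550 tested genes. The levels of the same 5 enzymes did not overlap between the groups over 8 libraries, as in 9.45% of tested genes in the direction of higher levels in DMM, and over 10 libraries this held for 0 enzymes and for 0.794% of tested genes. When TMM was replaced by library size alone, 276 genes were called higher and 700 lower over 8 libraries, in place of 452 and 590, the median log2 fold change of all genes moved from 0.02 to -0.09, and 4 enzymes were called, beside 1.67% of all tested genes called higher. When PBS 1, PBS 2, PBS 4 or PBS 5 was also left out, 3, 2, 1 and 1 enzymes were called higher, beside 1.34%, 1.17%, 0.952% and 0.774% of all tested genes. Without DMM 2, DMM 3, DMM 4 or DMM 5 there were 4, 1, 9 and 1, beside 2.23%, 1.10%, 6.71% and 0.995%. Bhmt passed the filter on low counts in 5 of these 8 fits, so that 10 enzymes were tested there, and it is among the 9 called without DMM 4. Mthfd1 was called in all 8 of these fits and Mthfd2 in 0 of them. Because the enzymes were chosen with this contrast known, nothing is read from these counts.

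The levels of most of the enzymes differed between libraries of the same treatment. Measured against the mean of PBS 1, 2, 4 and 5, the median log2 deviation of the 9 tested enzymes was 0.99 in PBS 3, with 9 of 9 above that mean, and 0.02 in DMM 1, with 5 of 9 above. It was 0.79 in DMM 2, 1.05 in DMM 3, 0.62 in DMM 4 and 1.22 in DMM 5, with 9, 8, 6 and 8 above. In PBS 1, 2, 4 and 5 themselves it was 0.19, 0.20, -0.18 and -0.15, with 7, 8, 2 and 0 above. The number above thus did not separate PBS 1 and PBS 2 from the DMM kidneys. Single enzymes departed from these medians, as Mthfd2 with 0.44 in PBS 4 and -0.59 in DMM 5, and Shmt1 and Shmt2 with -0.28 and -0.54 in DMM 4. The spread between PBS kidneys was wide for Gnmt and Dmgdh, whose SDs of log2 CPM, 1.27 and 1.11, were larger than those of 99.3% and 98.9% of tested genes, with a median over all tested genes of 0.18. Without PBS 3 these SDs were 0.69 and 0.77, larger than those of 96.2% and 97.3% of tested genes, with a median of 0.15. Over the 5 PBS kidneys the spread was narrower for Shmt1 (SD 0.22), Mthfd2 (SD 0.26) and Shmt2 (SD 0.27), and without PBS 3 it was 0.12, 0.30 and 0.03. Among DMM kidneys the median SD of all tested genes was 0.40, and Gnmt at 1.42 and Gldc at 1.01 had the widest spread of the enzymes. Without DMM 1 that median was 0.39, and Gnmt at 0.81 and Dmgdh at 0.73 had the widest spread.

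For each enzyme, the tested genes with the most similar course over the 10 libraries were found by the root mean square (RMS) difference of centred log2 CPM. Gnmt, with a range of 3.89 on the log2 scale, was nearest to the neutral amino acid transporter Slc6a19 (RMS difference 0.24), followed by Aadat and Cyp2d26. Dmgdh was nearest to Bhmt2 (RMS difference 0.13 with a range of 3.46), a homocysteine methyltransferase gene that lies head to head with it, with 130 bp between their deposited positions on opposite strands of chromosome 13, and then to Acox2 and Ugt3a2. Gatm was nearest to Gpd1, Slc37a4 and Bdh1, Sardh to Dglucy, the carnitine transporter gene Slc22a5 and Aldh5a1, and Gldc to Retsat, Dhtkd1 and Nqo1. Mthfd1 was nearest to Glb1l2, Dglucy and Slc25a16, so that Dglucy was near both Sardh and Mthfd1. Shmt1 was nearest to Eci1, Ndufv1 and Pink1, and Shmt2 to the respiratory chain genes Ndufb11 (RMS difference 0.06 with a range of 1.28) and Cyc1 and to Scrn2. Mthfd2, with a range of 1.03, was nearest to Snrpa1 (RMS difference 0.16), Wasf1 and Papolg. These distances describe 10 libraries that include the difference between the groups.

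Beyond the 10 enzymes, 63 other genes of glycine, serine, folate, methionine, choline and creatine metabolism were compared, of which 57 were tested. Over 10 libraries, edgeR called 0 of them and DESeq2 also 0. At the nominal threshold, 0 were higher and 1 was lower, as were 4.11% of all tested genes. Over 8 libraries, 12 of 57 were called higher and 1 lower, where 2.73% of all tested genes were called higher and 3.56% lower. The median log2 fold change of the 57 genes was 0.23 over 10 libraries and 0.42 over 8, and 46 of them were positive in each. The count over 8 libraries changed when single kidneys were left out: 4, 2, 0 and 0 were called higher without PBS 1, PBS 2, PBS 4 and PBS 5, and 7, 2, 24 and 0 without DMM 2, DMM 3, DMM 4 and DMM 5, beside the shares of all genes given above for the same fits. In the same order 1 was called lower in each fit but that without DMM 4, which had 2, beside 2.19%, 2.06%, 1.89%, 1.63%, 3.38%, 1.83%, 7.61% and 1.79% of all tested genes. With library size alone 3 were called higher and 1 lower, beside 276 and 700 of all 16550 tested genes.

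In the methionine cycle and transsulfuration list, 5 of 11 tested genes were called higher over 8 libraries, beside 2.73% of all tested genes. The median log2 fold change of the list was 0.51 over 8 and 0.36 over 10 libraries. Cth, the cystathionine lyase that yields cysteine, was at 30.0, 25.8, 67.0, 17.2 and 22.8 CPM in PBS 1 to 5 and at 20.2, 65.2, 78.9, 33.0 and 85.4 CPM in DMM 1 to 5. PBS 3 was again among the DMM kidneys and DMM 1 among the PBS kidneys, and the other libraries did not overlap. Its log2 fold change over 8 libraries was 1.45 (SE 0.29), and over 10 it was 0.80 (SE 0.44). Cbs, which condenses homocysteine with serine, had a log2 fold change of 1.36 (SE 0.31) over 8 libraries, and Bhmt2 one of 1.76 (SE 0.39). Ahcy, which hydrolyses S-adenosylhomocysteine, the product of the Gnmt reaction, had a log2 fold change of 0.70 (SE 0.14), and its relative Ahcyl2 one of 0.64. Over 10 libraries these 5 genes had adjusted p-values of 0.508 to 0.580 (edgeR), and the log2 fold changes of Cbs, Bhmt2, Ahcy and Ahcyl2 were 0.71, 0.82, 0.40 and 0.36. When a further kidney was left out of the 8, Cth was called in 3 of the 8 fits, Cbs in 1, Bhmt2 in 1, Ahcy in 2 and Ahcyl2 in 4. These fits called 0.774% to 6.71% of all tested genes higher. The methionine adenosyltransferase gene Mat2a had a log2 fold change of 0.37 (SE 0.16) over 8 libraries and the methionine synthase gene Mtr one of 0.27 (SE 0.15), against 0.21 and 0.20 over 10, and neither was called. Mat1a did not pass the filter on low counts.

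In the glycine cleavage system, whose partners of Gldc are Amt, Gcsh and Dld, 2 of the 3 partners were called higher over 8 libraries. Of all tested genes, 2.73% were called higher there. Amt, the aminomethyltransferase, was at 35.1, 33.7, 43.9, 23.0 and 25.7 CPM in PBS 1 to 5 and at 31.3, 46.0, 49.3, 46.1 and 51.5 CPM in DMM 1 to 5. DMM 2 to 5 were above every PBS kidney and DMM 1 was not. The log2 fold changes of Amt and Dld, the dihydrolipoamide dehydrogenase shared with other complexes, were 0.71 (SE 0.15) and 0.59 (SE 0.11), against 0.26 (SE 0.19) for Gcsh, which was not called. All 3 were below the 1.57 of Gldc, a difference between genes that was not tested. Over 10 libraries they were 0.47, 0.37 and 0.12, and none was called. Amt was called in 2 and Dld in 4 of the 8 fits with a further kidney left out. In these fits 0.774% to 6.71% of all tested genes were called higher.

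Of all tested genes, 2.73% were called higher over 8 libraries, and 0.774% to 6.71% in the fits with a further kidney left out. The 10 genes of serine and glycine breakdown included 7 that were tested, of which Glyctk and Srr were called higher over 8 libraries, with log2 fold changes of 0.94 (SE 0.18) and 0.70 (SE 0.14). Over 10 libraries these were 0.49 and 0.40, and each of these genes was called in 3 of the 8 fits with a further kidney left out. DESeq2 called 4 of this list higher over 8 libraries, Gcat and Grhpr beside these, and 5 passed the nominal threshold. Of all genes, DESeq2 called 2.48% higher and 3.01% lower there, and 6.45% were higher and 7.24% lower at the nominal threshold. Srr overlaps Smg6 and Tsr1 on the opposite strand. Of the other pathway genes named in the text, Slc19a1 overlaps Col18a1, Aldh1l2 overlaps D10Wsu102e and Mat2a overlaps Particl in this way. So do Psph and Cct6a, Aldh7a1 and Phax, Etfdh and 4930579G24Rik, and Chdh with Cacna1d and Gm18760. Of 18 tested folate enzymes and carriers, the formyltetrahydrofolate dehydrogenase gene Aldh1l1 and the folate transporter gene Slc46a1 were called higher over 8 libraries, with log2 fold changes of 0.90 (SE 0.22) and 0.61 (SE 0.15), and 0.57 and 0.38 over 10. Each was called in 1 of the 8 fits with a further kidney left out. Over 8 libraries DESeq2 called 3 of the folate list higher, Slc19a1 beside these, and 1 lower, and 4 were higher and 1 lower at the nominal threshold. The mitochondrial Aldh1l2 had a log2 fold change of 0.51 (SE 0.29) and Mthfd1l one of -0.20 (SE 0.35), and the thymidylate synthase gene Tyms one of 0.08 (SE 0.20), against 0.47, -0.08 and 0.09 over 10, and none of them was called. Without DMM 4 as well, the log2 fold change of Mthfd1l was -0.71 and it was called lower, and in the other 7 fits it was -0.30 to -0.05 and not called. Of the 4 mitochondrial serine and glycine carriers, Sfxn1, a serine carrier, was called higher with a log2 fold change of 0.79 (SE 0.18), with its highest level, 236 CPM, in DMM 4 and 149.6 CPM or less in the other kidneys. Over 10 libraries the log2 fold change of Sfxn1 was 0.54 (SE 0.22), and it was called in 1 of the 8 fits with a further kidney left out.

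Serine synthesis, creatine genes and the choline and sarcosine partners had 0 called genes in either set by edgeR. Of all tested genes, 0% were called over 10 libraries, and 2.73% were called higher and 3.56% lower over 8. Without DMM 4 as well, 5 of the 7 choline and sarcosine partners (Aldh7a1, Etfa, Etfb, Etfdh and Pipox) were called higher, beside 6.71% of all tested genes. In the other 7 fits with a further kidney left out, 0 of these partners were, beside 0.774% to 2.23% of all tested genes. At the nominal threshold, 1 of these partners, the electron transfer flavoprotein gene Etfa that takes electrons from Dmgdh and Sardh, was higher over 8 libraries, and DESeq2 called it there. Of all genes, 6.45% were higher at that threshold, and DESeq2 called 2.48% higher. The serine synthesis genes Phgdh, Psat1 and Psph had log2 fold changes of -0.27 (SE 0.14), 0.25 (SE 0.13) and -0.22 (SE 0.25) over 8 libraries, and -0.31, 0.08 and -0.20 over 10. Of the creatine genes, Gamt, which acts after Gatm, had a log2 fold change of 0.28 (SE 0.18), and the creatine transporter gene Slc6a8 one of 0.51 (SE 0.12), below the fold change of 1.5, and over 10 libraries these were 0.14 and 0.40. All 7 choline, betaine and sarcosine partners were positive, with a median of 0.49 over 8 libraries and 0.29 over 10, among them Chdh at 0.42 (SE 0.19) and the peroxisomal sarcosine oxidase gene Pipox at 0.62 (SE 0.35) over 8, and at 0.20 and 0.33 over 10.

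**Figure D3:**
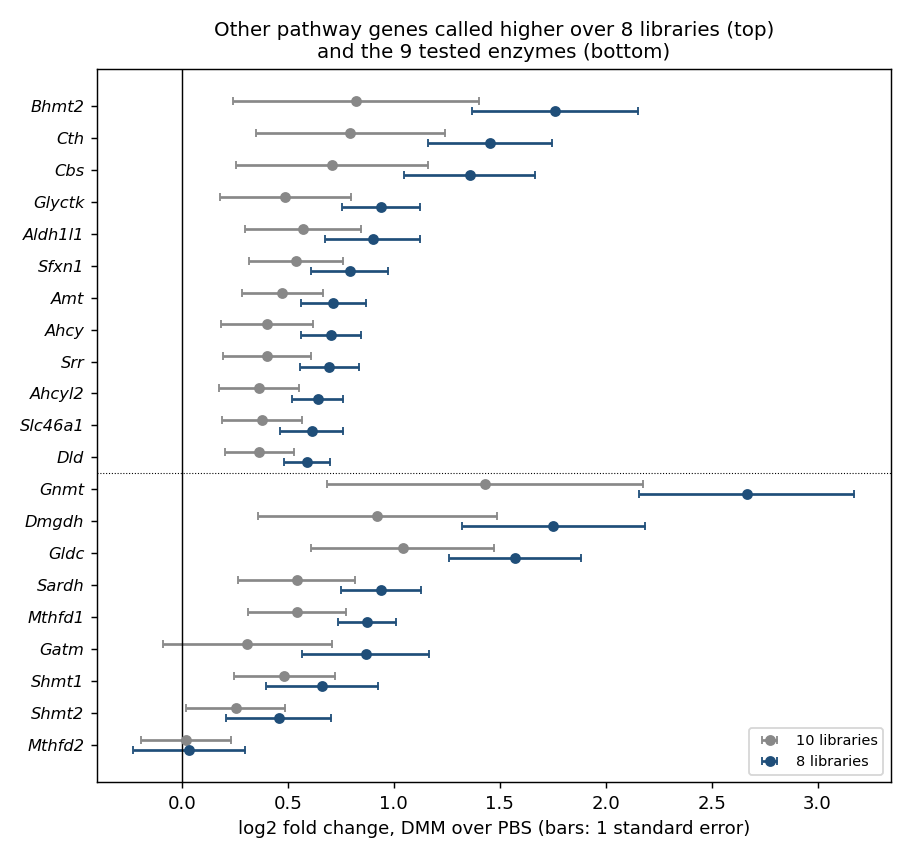
Log2 fold change of DMM over PBS with 1 SE for the 12 other pathway genes called higher over 8 libraries and for the 9 tested enzymes, over 10 libraries in grey and over 8 in blue. Every gene shown lies above 0 in both, Mthfd2 by 0.02 and 0.03, and the estimates over 8 libraries lie farther from 0, as for Gnmt at 2.67 and 1.43.

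Markers of other cells and segments were followed in the same way. The 6 macrophage markers, led by Lyz2, summed to 1872, 1932, 1499.9, 1652 and 2027 CPM in PBS 1 to 5 and to 1764, 1226, 973, 658 and 988 CPM in DMM 1 to 5. DMM 2 to 5 were below every PBS kidney, and DMM 1 was within the PBS range. Over 8 libraries, where edgeR called 2.73% of all tested genes higher and 3.56% lower, 2 of the 6 were called lower, with a median log2 fold change of -0.96, and 0 of 6 were positive. Of 6 fibroblast markers, led by Col3a1, 1 was called lower with a median of -0.82, and of 6 T and NK cell markers, led by Cd4, 1 was called lower with a median of -1.17. Among tubule segments, 2 of 4 loop of Henle markers, led by Umod, and 3 of 6 tested distal and collecting duct markers, led by Slc12a3, were called higher, with medians of 0.77 and 1.08. Of 3 tested hepatocyte markers, 2 were called higher, with a median of 1.94. The 5 markers of that list, led by Serpina1a, summed to at most 68.8 CPM (DMM 5). DESeq2 called 5 macrophage, 3 fibroblast and 3 T and NK cell markers lower over 8 libraries, and 2 loop of Henle, 4 distal and collecting duct and 3 hepatocyte markers higher, beside its shares of all genes, 3.01% lower and 2.48% higher. Over 10 libraries the medians were -0.66, -0.48 and -0.93 for macrophage, fibroblast and T and NK cell markers. They were 0.485 for loop of Henle, 0.51 for distal and collecting duct, and 1.33 for hepatocyte markers. By edgeR, no marker was called over 8 libraries in the lists of injured tubule, podocyte, endothelium, B and plasma cell, proliferation and ATF4 response, whose medians were -0.01, -0.07, 0.03, -0.70, -0.31 and -0.35 and whose most abundant genes were Spp1, Podxl, Pecam1, Jchain, Mki67 and Atf4. At the nominal threshold, 1 B and plasma cell, 2 proliferation and 1 ATF4 response marker were lower in these lists, beside 7.24% of all tested genes. DESeq2 called Jchain and Ddit3 lower. Over 10 libraries no marker of any list was called by edgeR or DESeq2, while 4 macrophage and 3 T and NK cell markers were lower, and 2 proximal tubule, 1 loop of Henle and 1 hepatocyte marker higher, at the nominal threshold. Of all tested genes over 10 libraries, 4.11% were lower and 1.91% higher at that threshold. None of the markers was at 0 in all libraries. The part of these cells in the levels of the enzymes was not tested.

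The promoters of all 10 enzymes, from 250 bases before to 50 after the RefSeq start, were matched in the mouse build GRCm38.p6 and searched on both strands for short motifs. The E-box CACGTG, the ATF4 element TGATGNAA and the HNF1 core GTTAAT were in 0 of 10 promoters, and in 7.15%, 3.97% and 7.10% of the 32851 promoters of all genes. The hexamer AGGTCA, bound by many nuclear receptors, was in 5 of 10 (Gnmt, Gatm, Bhmt, Sardh and Mthfd1) and in 16.3% of all promoters, and Bhmt held 3 copies. A match describes letters and is no evidence of binding. The promoters of the 3 called enzymes that hold the hexamer are shown as examples. The letters are in lower case from 5′ to 3′ on the strand of the gene, with AGGTCA or its complement TGACCT in capitals. These promoters lie at chr17:46729116-46729415 (minus strand, Gnmt), chr2:27247254-27247553 (minus strand, Sardh) and chr12:76254982-76255281 (plus strand, Mthfd1).
Gnmt: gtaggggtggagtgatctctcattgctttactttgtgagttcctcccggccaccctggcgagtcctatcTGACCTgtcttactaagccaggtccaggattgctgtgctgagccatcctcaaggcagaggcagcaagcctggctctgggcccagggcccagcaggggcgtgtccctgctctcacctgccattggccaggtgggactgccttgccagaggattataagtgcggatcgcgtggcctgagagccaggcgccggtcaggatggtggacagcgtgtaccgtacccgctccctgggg
Sardh: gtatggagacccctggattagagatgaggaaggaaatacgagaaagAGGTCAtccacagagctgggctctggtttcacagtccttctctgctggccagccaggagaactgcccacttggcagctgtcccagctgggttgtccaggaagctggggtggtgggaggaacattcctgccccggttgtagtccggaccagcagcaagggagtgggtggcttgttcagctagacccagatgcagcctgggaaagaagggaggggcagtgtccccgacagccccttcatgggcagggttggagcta
Mthfd1: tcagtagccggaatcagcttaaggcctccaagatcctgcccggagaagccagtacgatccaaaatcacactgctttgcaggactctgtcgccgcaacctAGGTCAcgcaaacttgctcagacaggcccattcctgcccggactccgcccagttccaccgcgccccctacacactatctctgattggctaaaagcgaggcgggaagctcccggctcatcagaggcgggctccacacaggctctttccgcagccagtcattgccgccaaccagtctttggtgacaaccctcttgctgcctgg
The hexamer starts 181 bases before the start in Gnmt, 204 in Sardh and 151 in Mthfd1. Of the remaining called enzymes, Dmgdh and Gldc, neither promoter held it, and their levels were also high in PBS 3 and low in DMM 1. A link between the hexamer and the levels was not tested. The GC content of these promoters was 62.0% in Gnmt, 59.0% in Sardh and 59.0% in Mthfd1, with a median of 52.7% over all promoters.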

How the data were processed

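Of UUO kidneys, 5 RNA-seq libraries of PBS-treated and 5 of DMM-treated mice were compared. The authors deposited the number of reads on each gene as whole counts, without normalization. Reads were aligned to mm10 according to the study's methods, and the submitters' processing notes name HISAT2 2.0.5. The counting tool, annotation and strand setting are not given in the sources used here. The group means in the deposited table are a signal in counts divided by size factors, and were used only to find which libraries entered them: a regression on the counts gave PBS 3 and DMM 1 a weight of 0. The deposited gene length, in base pairs, was used for levels per kb. The deposited fold changes and p-values of the authors' own comparison and 10 columns of FPKM were not used.

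Counts were filtered by filterByExpr, scaled by TMM and tested by the quasi-likelihood F test of edgeR 4.0.16 in R 4.3.3, with Benjamini-Hochberg adjustment over all 16505 genes tested over 10 libraries and 16550 over 8. Each standard error is the log2 fold change divided by the root of its F statistic. CPM used the TMM library sizes of all 10 libraries, and log2 CPM a prior count of 2. Genes searched as neighbours of an enzyme in their course over libraries had at least 10 counts in each library. This limit was not applied to the enzyme itself, and Gnmt had 9 counts in PBS 5. Symbols present more than once kept the row with more reads. Promoters were read with Python 3.11.15 and Biopython 1.88, and the fits were tested on simulated data. Alternatives were DESeq2 1.42.0, scaling by RLE or by library size alone, a stricter filter and none, the replicate number as a block, and each library left out in turn. The enzymes, the pathway lists and the marker lists were chosen with earlier results of these data known. Pathway genes were named where called in either set, together with enzymes of each branch. Aldh7a1, Etfa, Etfb, Etfdh, Gcat, Grhpr and Slc19a1 were named after their values were seen. Values of 1 gene of these lists are not reported here, though counts and medians include it. The study's methods call the 5 replicates independent without naming separate mice, and no pair of libraries of a group agreed within sampling noise. Total counts differed little between libraries and no batch is named in the labels, so that batches were not tested.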

Additional observations from a re-analysis of the deposited data

Results flagged for a closer look

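In groups of 5 libraries, a library was singled out when its gap to the nearest other library exceeded 0.71 of the range of the group (Dixon's 95% critical value). Of 46 groups screened, over 10 enzymes and 13 marker lists, 8 had such a library. For independent groups of normally distributed values, chance alone gives about 1 in 20. The groups here share the same libraries and their CPM were not put on the log scale, so no excess is read from the 8. In PBS 3, Gnmt was at 5.34 CPM, with the next highest PBS kidney at 1.59, Shmt2 was at 63.4 CPM, with the next at 43.0, and Gldc was at 28.1 CPM, with the next at 15.2. The proximal tubule marker sum was 11218 CPM in PBS 3, with the next at 4309.8, and the hepatocyte marker sum was 36.5 CPM, with the next at 15.3. The T and NK cell marker sum was 58.1 CPM in PBS 5, with the next at 39.0, and the B and plasma cell marker sum was 22.3 CPM in PBS 4, with the next at 7.53. The proliferation marker sum was 990.0 CPM in DMM 4, with the next highest DMM kidney at 339.7. The reason why these libraries stood apart was not tested.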

How the results depend on the processing

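Over 10 libraries edgeR called 0 genes, DESeq2 called 45, and leaving out single libraries gave 0 to 486, the highest without DMM 1. The 8 libraries gave 1042 calls with edgeR and 1659 with DESeq2, with 5 and 5 enzymes and 13 and 17 other pathway genes. The number of pathway genes past the nominal threshold was 1 over 10 libraries, 1 to 11 with a library left out, and 19 over 8 libraries with either tool. Of all genes over 10 libraries, 315 of 16505 were higher and 678 lower at that threshold. Without PBS 3, which gave the 11, these were 703 and 736 of 16699. Over 8 libraries they were 1067 and 1198 of 16550 with edgeR, and 1363 and 1479 of 30191 with DESeq2. The number of pathway genes called over 10 libraries was 0 to 1 with a library left out. Within the 8 libraries, leaving out a further one gave 407 to 2410 genes called, 1 to 9 enzymes, 1 to 26 pathway genes called and 12 to 26 past the nominal threshold, with the lowest number of calls without PBS 5 and the highest without DMM 4. Without PBS 4, which gave the 12, 784 of all 16810 tested genes were higher and 1051 lower at the nominal threshold. Without DMM 4, which gave the 26, these were 1290 and 1614 of 16828. With library size alone, 4 pathway genes were called over 8 libraries and 11 passed the nominal threshold. Of all 16550 tested genes, 723 were higher and 1557 lower at that threshold with this scaling. The cause of these changes was not tested. RLE size factors and other filters on low counts were chosen for the 8 libraries after seeing the data, as were library size alone and the block there.

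Libraries that share a replicate number were not treated as pairs in the main fits. The correlations of their deviations from the group means were -0.06, 0.08, 0.34, 0.12 and -0.22 for numbers 1 to 5. Correlations between libraries of different numbers were not computed, so these values cannot decide whether the libraries are paired. With the number as a replicate block, 0 genes were called over 10 libraries. Over the 3 complete pairs within the 8 libraries, which hold 6 libraries in all, 0 genes, 0 enzymes and 0 pathway genes were called.

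The log2 fold changes of Gnmt, Gatm, Dmgdh, Sardh, Shmt1, Shmt2, Mthfd1 and Gldc stayed positive in all 18 alternatives to the fit over 10 libraries and all 14 to that over 8. That of Mthfd2 ranged from -0.09 to 0.15 and from -0.11 to 0.20. Levels of Bhmt and of Gnmt in the low PBS kidneys are limited by depth.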
